A study of Mus musculus with 40 samples.

Results

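The genes described here carry the traffic of proteins and lipids between the membranes of the cell: the Rab, Arf and Arl GTPases, the COPI and COPII coats, the clathrin adaptors AP-1 to AP-3, the p24 (Tmed) cargo receptors, the SNAREs, the exocyst and Vps tethers, retromer, ESCRT and the sorting nexins. They were taken by gene symbol alone, from probes that map to 1 gene, and their measured values had no part in the choice. The rule found 151 genes among the 6970 single-symbol genes of the arrays, on 189 of 9604 probes. Array design 1 held 82 of these genes on 95 probes, array design 2 held 87 on 94 probes, and 18 genes were on both. The rule follows names, so it also takes in Vps72, a subunit of a chromatin remodeller, and Sec14l2 and Sec14l4, lipid-binding proteins outside the coats.

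Cultured mouse embryos exposed to 40 µM 4-hydroperoxycyclophosphamide (a pre-activated form of the DNA-alkylating drug cyclophosphamide) for 5 h at 37 °C were compared with untreated control embryos cultured at 37 °C. All 40 arrays were 2-colour cDNA arrays on which total RNA of treated embryos was hybridised together with total RNA of control embryos. Each of the 2 array designs had 20 arrays, from 5 replicates that each held both dye orientations and 2 readouts per slide. The embryos' stage and strain are not given in the labels, and only the labels set the replicates apart, so a p-value here measures how far these arrays differ, and that spread may be technical.

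Every value below is a log2 ratio of treated over control embryos, centred on the median probe of its array, so that a change is relative to the typical probe. Without centring the median of all probes was −0.24 on array design 1 and −0.41 on array design 2, and the sign of small changes then depends on that shift. A ratio says nothing of a gene's level, and in whole embryos fewer cells of a type and less RNA per cell cannot be told apart. The direction is the likely one, from the order of the channels in the labels and from the p53 targets Ccng1 (2.41 and 2.90 on its probes of array design 1 and 1.39 on array design 2) and Mdm2 (0.89 and 0.91). If the deposited ratio had channel 2 on top, every sign below turns. A replicate's value is the mean of its 2 dye orientations, so that a dye effect of equal size on both cancels.

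Cargo enters this route at the endoplasmic reticulum (ER), through the Sec61 channel, and leaves it in COPII vesicles, while COPI vesicles return material from the Golgi. Rab GTPases mark each membrane and recruit the tethers and motors that act there, and SNAREs fuse the vesicle with its target. Endocytosed proteins pass from early to late endosomes, from which retromer and sorting nexins recycle them, while ESCRT and the HOPS tether lead to the lysosome.

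The traffic genes as a group moved little. On array design 1, 0 of 95 probes were higher and 0 were lower at an adjusted p under 0.05 (limma, Benjamini-Hochberg over all 7680 probes), against 0.638% higher and 0.013% lower of all probes. At an unadjusted p under 0.05 there were 34 of 95, or 35.8%, against 33% of all probes. On array design 2, 17 of 94 probes were higher and 5 lower (limma), which is 18.1% and 5.32% of them, against 19.8% and 8.07% of all 7599 probes. With arrays scaled to one spread the counts were 15 higher and 0 lower (5 lower at an unadjusted p under 0.05), against 15.1% and 2.37% of all probes. The share called among traffic genes was thus close to the background for the rises and below it for the falls, with no test of that difference. The median over the traffic probes was 0.07 on array design 1 and 0.05 on array design 2, against 0.00 and 0.02 over all probes. None of the 189 traffic probes reached a 1.5-fold change in its mean, and those called on array design 2 lay between 1.11-fold and 1.37-fold. Folds assume a log base of 2, which was inferred and not stated.

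A smooth part of the values followed the probes' dye profile, that is, how each probe's ratio depends on which channel held the treated RNA. This trend took up 33.97% to 81.5% of the variance between probes in a replicate on array design 1 and 35.3% to 61.6% on array design 2. With it removed, array design 1 still had 0 traffic probes higher and 0 lower (limma, 7 and 2 at an unadjusted p under 0.05, lowest adjusted p 0.14), against 0.56% and 0.221% of all probes. On array design 2 it left 3 higher and 2 lower, which is 3.19% and 2.13% of the traffic probes, against 3.15% and 1.88% of all probes. The removal also takes out any response to the drug that runs along the dye profile. The ratio and the dye profile come from the same slides, so noise in 1 orientation enters both. How much of the trend is such noise was not tested. The medians of the traffic probes were then 0.01 on both designs.

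**Figure D1:**
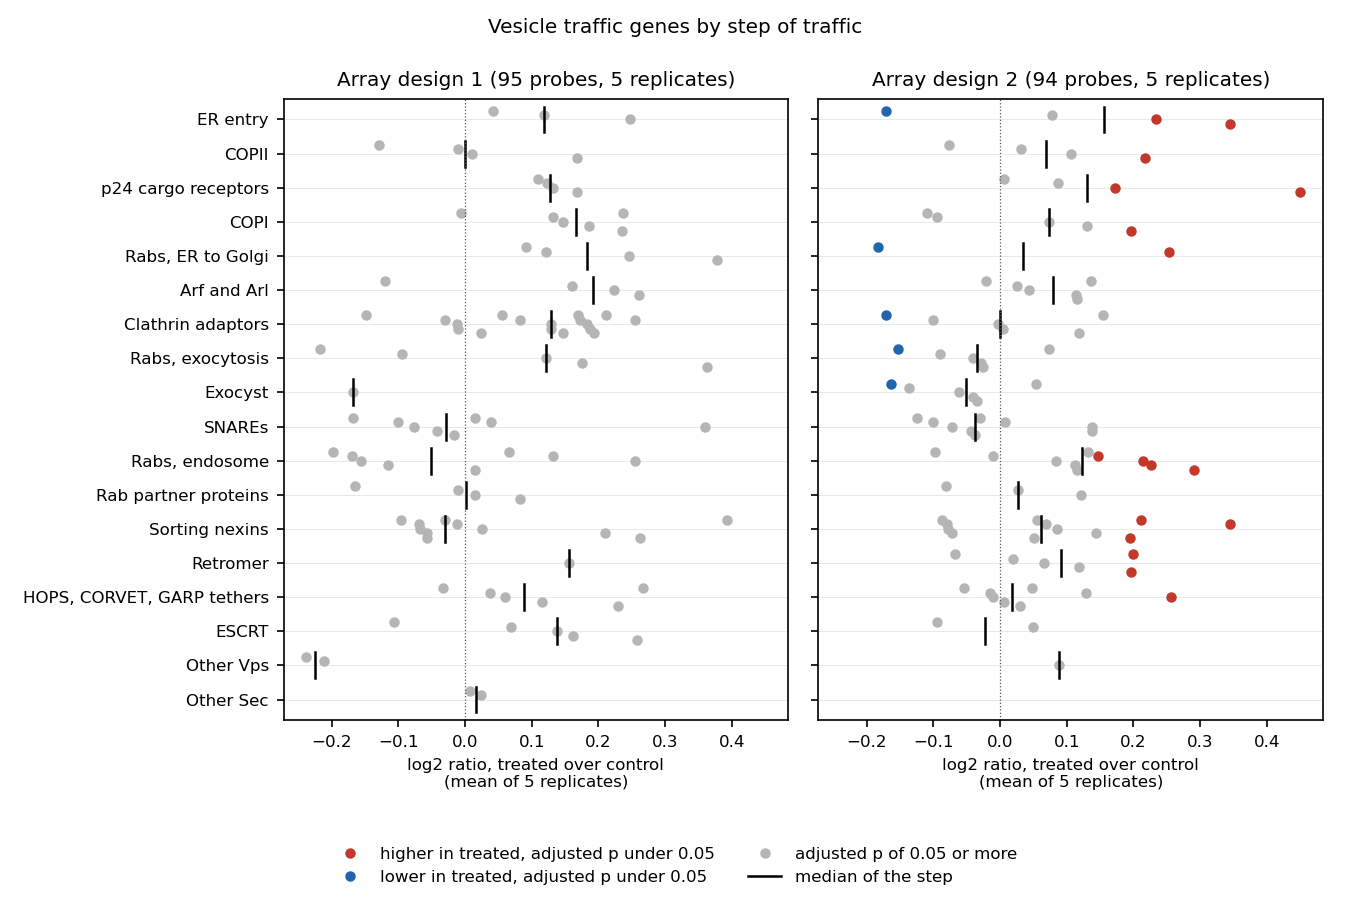
Log2 ratio of treated over control embryos (x axis, mean of 5 replicates) for each traffic probe, by step of traffic (y axis), on array design 1 (left) and array design 2 (right). Red and blue points had an adjusted p under 0.05 and black bars are step medians. The 17 higher and 5 lower probes all lie on array design 2, and Tmed3, at 0.45, lies highest.

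On slides with the treated RNA in channel 1 and on slides with it in channel 2, a response to treatment alone gives the same sign and a dye effect alone gives opposite signs. Of the 22 called probes of array design 2, 14 had the same sign in both orientations, or 63.6%, against 56.1% of all probes called there. By direction this held for 13 of the 17 rises and for 1 of the 5 falls. The exceptions among the rises were Tmed3, Vps26a, Vps29 and Snx5, and among the falls only Sec63 had 1 sign. Leaving out each replicate in turn kept 8 of the 22 calls every time, those of Tmed3, Sec61g, Snx3, Rab7, Vps16, Rab6a, Sec62 and Snx2. Neither this count nor the split of orientations by direction was computed for all called probes, so neither has a background. Without replicate 1 there were 8 rises and 0 falls, and the falls numbered 1 without replicate 2, 1 without replicate 3 and 4 without replicate 4. Of all probes, 11.7% were higher and 1.64% lower without replicate 1, and 2.93%, 2.37% and 5.09% were lower without replicates 2, 3 and 4.

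**Figure D2:**
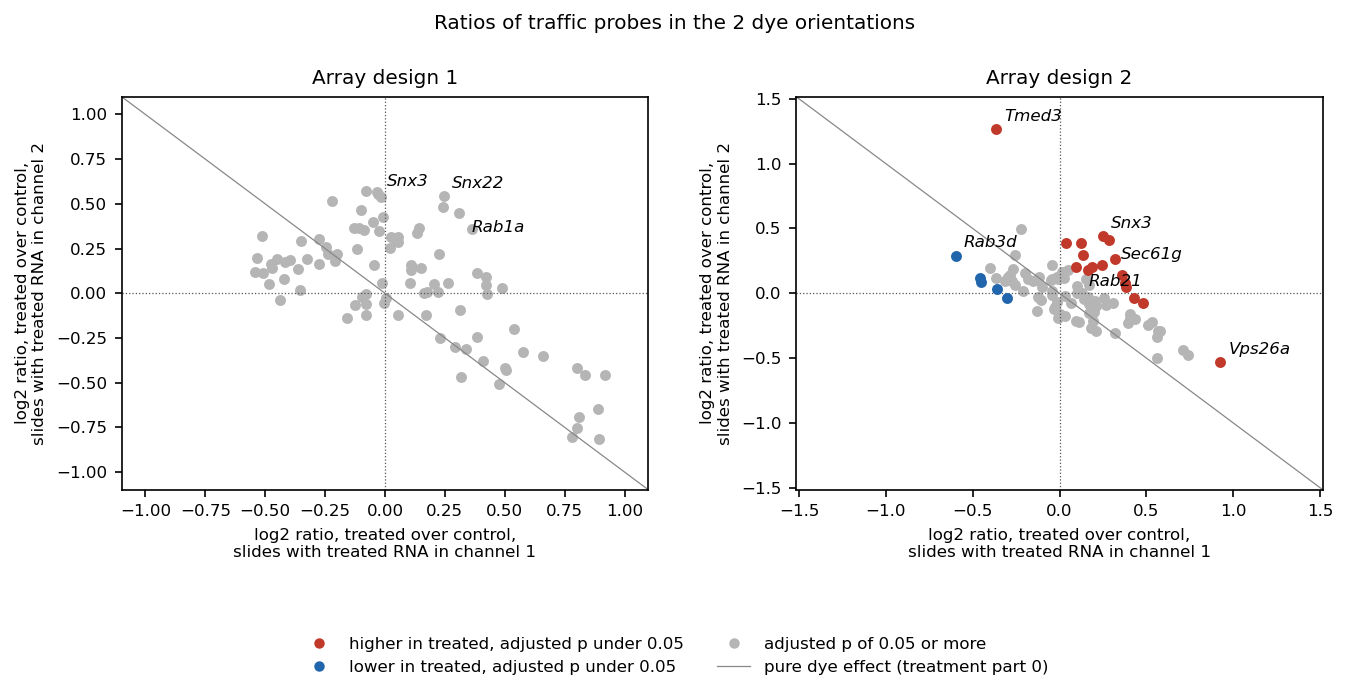
Log2 ratio of treated over control embryos on slides with treated RNA in channel 1 (x axis) against slides with it in channel 2 (y axis), 1 point per traffic probe, for both array designs. The grey diagonal marks a dye effect with no treatment effect. Tmed3 lies far up the left side, at −0.36 and 1.27, while Snx3 and Sec61g lie above 0 in both orientations of array design 2.

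The promoters of the 3 genes that were higher both with and without the trend, Sec61g, Snx3 and Rab21, are shown because theirs are the rises that passed either way. Each runs from 250 bases before to 50 after the RefSeq start (GRCm38.p6), 5′ to 3′ along the gene: Sec61g at chr11:16508435-16508734 (minus strand), Snx3 at chr10:42501804-42502103 (plus strand) and Rab21 at chr10:115315542-115315841 (minus strand). Capitals mark CACGTG (the core of the CLEAR element of lysosomal genes), TGACGTCA (the cAMP response element) and CCAAT or its complement, searched on both strands.
Sec61g: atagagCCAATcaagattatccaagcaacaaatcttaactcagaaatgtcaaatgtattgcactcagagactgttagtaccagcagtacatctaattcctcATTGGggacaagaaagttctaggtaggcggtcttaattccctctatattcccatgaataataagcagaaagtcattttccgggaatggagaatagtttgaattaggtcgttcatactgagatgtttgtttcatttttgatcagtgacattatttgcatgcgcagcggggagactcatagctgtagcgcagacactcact
Snx3: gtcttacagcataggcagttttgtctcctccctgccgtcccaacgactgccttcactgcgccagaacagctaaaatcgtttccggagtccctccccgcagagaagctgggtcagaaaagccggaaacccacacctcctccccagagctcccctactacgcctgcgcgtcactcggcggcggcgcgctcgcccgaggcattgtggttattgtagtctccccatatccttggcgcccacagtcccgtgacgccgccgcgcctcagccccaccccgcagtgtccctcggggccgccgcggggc
Rab21: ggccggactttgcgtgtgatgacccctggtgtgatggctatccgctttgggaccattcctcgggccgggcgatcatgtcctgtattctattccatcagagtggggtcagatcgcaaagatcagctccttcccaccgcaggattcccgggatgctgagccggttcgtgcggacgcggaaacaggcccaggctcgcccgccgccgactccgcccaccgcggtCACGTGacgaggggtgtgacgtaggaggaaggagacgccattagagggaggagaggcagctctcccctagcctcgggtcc
Sec61g has 2 CCAAT matches and a GC content of 39.7%, Rab21 has 1 CACGTG and 63.7%, and Snx3 has none of these motifs and 65.3%. So the 3 promoters share none of the motifs. Over all the traffic genes with a promoter in the table, CACGTG occurred in 20 of 126 or 15.9%, against 11.3% of the 5644 genes of the arrays and 7.24% of 27025 promoters in all. CCAAT occurred in 39.7%, against 39.2% and 37.9%, and TGACGTCA in 3.17%, against 3.33% and 1.88%. CCAAT followed after 9 bases by CCACG, an ER stress element, occurred in 0 of 126, against 0.23% and 0.13%. Median GC content was 62.3%, against 61.2% of the genes of the arrays. These matches are a description of letters only.

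At ER entry, Sec61g and Sec62 rose and Sec63 fell on array design 2. Sec61g, the small gamma subunit of the Sec61 translocation channel, had 0.46, 0.37, 0.30, 0.26 and 0.33 in replicates 1 to 5. All 5 replicates lay above 0, with a mean of 0.35 ± 0.08 (SD, n = 5), a 1.27-fold rise (limma adjusted p = 4.3e-05, 95% interval 0.24 to 0.46). It was 0.28 with treated RNA in channel 1 and 0.41 with it in channel 2. With the dye-profile trend removed it stood at 0.19 ± 0.07 (limma adjusted p = 0.019, n = 5). Sec61g thus passed with the trend and without it.

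Sec62 and Sec63 are partners of the channel in bringing finished chains to it. Sec62 rose by 0.23 ± 0.08 and Sec63 fell by 0.17 ± 0.09 (SD, n = 5, limma adjusted p = 0.0024 and 0.022), but with the trend removed the values were 0.11 and −0.11 with adjusted p of 0.14 and 0.16. Another Sec63 probe, on array design 1, gave 0.12 ± 0.37 (SD), which did not pass the test. The channel's alpha subunits Sec61a1, on array design 1, and Sec61a2, on array design 2, had 0.25 and 0.08 (limma adjusted p = 0.13 and 0.35).

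Among the COPII coat genes, Sec24a, a cargo-binding subunit, rose by 0.22 ± 0.14 on the 5 replicates of array design 2 (SD, limma adjusted p = 0.0082, n = 5). Its replicates were 0.34, 0.23, 0.36, 0.07 and 0.07, all above 0, and without replicate 1 the adjusted p was 0.064. Its probe on array design 1 gave 0.17 ± 0.10 (limma adjusted p = 0.082). Sec24c, its paralog, had −0.08 ± 0.12 (limma adjusted p = 0.32) and passed the test only with the trend removed, at −0.16 ± 0.05 (limma adjusted p = 0.026). The other COPII genes lay between −0.13 and 0.11, and none passed.

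The p24 receptors, which load cargo at both coats, held the largest rise among the traffic probes, and of the called probes it was the one most divided by dye. Tmed3 had 0.57, 0.42, 0.37, 0.48 and 0.40 in replicates 1 to 5, a mean of 0.45 ± 0.08 (SD, n = 5, limma adjusted p = 2.3e-06, 1.37-fold). The mean averages opposite orientations, −0.36 with treated RNA in channel 1 and 1.27 with it in channel 2. Less the trend, Tmed3 stood at 0.04 ± 0.11 (limma adjusted p = 0.62). Tmed4 rose by 0.17 ± 0.08 (limma adjusted p = 0.021), with 0.16 and 0.18 in the 2 orientations and 0.10 with the trend removed (adjusted p = 0.14). The other 6 p24 probes, for Tmed2, Tmed5, Tmed7, Tmed9 and Tmed10, lay between 0.01 and 0.17 and did not pass.

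In the COPI coat, Copa, the alpha subunit, was higher on array design 2, by 0.20 ± 0.09 (SD, n = 5, limma adjusted p = 0.01), at 0.19 and 0.20 in the 2 orientations and 0.08 with the trend removed (adjusted p = 0.22). None of the other 10 COPI probes passed. The 3 probes of Copz1, the zeta subunit, agreed at 0.24, 0.15 and 0.19 on array design 1. The paralogs Copg1 and Copg2 differed in sign on array design 2, at 0.13 and −0.09, with neither past the threshold. The Arf and Arl GTPases, which recruit these coats and the clathrin adaptors, gave no call on either design. The Arf and Arl values ran from −0.12 to 0.26. The 2 probes of Arf1, the GTPase that starts COPI assembly, were at 0.22 and 0.26 (limma adjusted p = 0.14 and 0.31).

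The clathrin adaptor subunits had 17 probes on array design 1, with 0 called, against 0.638% higher and 0.013% lower of all probes. On array design 2 they had 6 probes, with 0 higher and 1 lower, against 19.8% and 8.07% of all probes. Ap3b2, the neuronal beta subunit of AP-3, fell by 0.17 ± 0.11 (SD, n = 5, limma adjusted p = 0.026), at −0.46 and 0.12 in the 2 orientations and −0.04 with the trend removed. Ap1g1, the gamma subunit of AP-1, had 0.06, −0.11, −0.06, 0.10 and 0.04 on array design 2, spread around 0 with a mean of 0.00. Less the trend it stood at −0.20 ± 0.06 (limma adjusted p = 0.013), so this fall was seen only relative to the trend. Ap1g1 on array design 1 gave 0.17 ± 0.39 and −0.05 with the trend removed.

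Of the 10 endosomal Rab probes on array design 2, 4 were higher and 0 lower, against 19.8% and 8.07% of all probes. The 8 on array design 1 gave 0 calls (limma), against 0.638% higher and 0.013% lower of all probes. Their median was −0.05, and 0.03 with the trend removed. Rab15, Rab17, Rab20 and Rab32 had −0.17, −0.20, −0.12 and −0.16 there. Rab11a and Rab24 had 0.01 and 0.07, and the Rab14 probes 0.13 and 0.25. Rab7, the GTPase of late endosomes and lysosomes, had 0.48, 0.22, 0.20, 0.20 and 0.36 on array design 2. All replicates were above 0, with a mean of 0.29 ± 0.12 (SD, n = 5, limma adjusted p = 5.1e-04) and 0.32 and 0.26 in the 2 orientations. Rab7 less the trend stood at 0.11 ± 0.09 (limma adjusted p = 0.15).

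Rab21, which acts on early endosomes and integrin recycling, had 0.26, 0.10, 0.11, 0.10 and 0.17, a mean of 0.15 ± 0.07 (SD, n = 5, limma adjusted p = 0.041, 1.11-fold). Its ratio was not smaller with the trend removed, at 0.17 ± 0.07 (limma adjusted p = 0.029). The call is near the threshold, however, and was lost whichever replicate was left out, at adjusted p of 0.055 to 0.13.

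Rab11a and Rab11b, close paralogs of the recycling endosome whose transcripts a cDNA probe may not tell apart, each had 1 of 2 probes called on array design 2. For Rab11a one probe gave 0.31, −0.07, 0.28, 0.23 and 0.32 (mean 0.21 ± 0.16, limma adjusted p = 0.011) and the other −0.01 ± 0.16 (limma adjusted p = 0.91). These 2 probes lay 0.23 apart, the widest gap between probes of 1 traffic gene on 1 design. A Rab11a probe on array design 1 gave 0.01 ± 0.15. The Rab11b probes gave 0.23 ± 0.22 (limma adjusted p = 0.015) and 0.12 (limma adjusted p = 0.14), and with the trend removed the first stood at 0.08 (adjusted p = 0.50).

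Of the secretory Rabs, Rab6a, which works at the Golgi, rose by 0.25 ± 0.10 and Rab30, another Golgi Rab, fell by 0.18 ± 0.10 (SD, n = 5, both of array design 2, limma adjusted p = 0.0015 and 0.017). Rab6a had 0.36 and 0.14 in the 2 orientations, and Rab30 −0.46 and 0.09. With the trend removed they were 0.09 and −0.06 (limma adjusted p = 0.15 and 0.34). Rab3d, a Rab of regulated secretion, fell by 0.15 ± 0.09 (limma adjusted p = 0.038), at −0.60 and 0.29 in the 2 orientations and −0.02 with the trend removed. The exocyst, which tethers secretory vesicles at the plasma membrane, gave 1 call, Exoc8, with a fall of 0.16 ± 0.06 (limma adjusted p = 0.025) that turned to 0.04 with the trend removed. No SNARE passed on either design (17 probes, limma). On array design 1 the exocyst group had 1 probe, for Exoc3l4, a gene taken in by its name as Exoc3-like. Rab8b and Rab3gap1 had the smallest p there of the exocytosis Rabs and the Rab partner proteins. Exoc3l4, Rab8b and Rab3gap1 lay at −0.17, −0.22 and −0.17 (limma adjusted p = 0.060, 0.087 and 0.067). With the trend removed they were 0.00, −0.07 and 0.00. Another Rab3gap1 probe gave −0.01.

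The sorting nexins, which bind endosomal phosphoinositides and sort cargo for recycling, included Snx3, which was above 0 in every replicate of both designs. It works with retromer in returning receptors from endosomes. On array design 2 it had 0.26, 0.35, 0.38, 0.30 and 0.43 in replicates 1 to 5, a mean of 0.34 ± 0.07 (SD, n = 5, limma adjusted p = 3.9e-05, 1.27-fold, 95% interval 0.24 to 0.45). All replicates were above 0, and the orientations gave 0.25 and 0.44. On array design 1 a separate probe had 0.10, 0.18, 0.33, 0.20 and 0.49, a mean of 0.26 ± 0.15 (limma adjusted p = 0.052, 95% interval 0.11 to 0.42). There too every replicate was above 0, though the orientations gave −0.03 and 0.55 and the adjusted p was just over the threshold. With the trend removed the values were 0.24 ± 0.13 on array design 2 (limma adjusted p = 0.026) and 0.17 ± 0.22 on array design 1 (limma adjusted p = 0.35). Snx13, another nexin on both designs, was below 0 in every replicate of each. Its means were −0.10 on array design 1 and −0.08 on array design 2 (limma adjusted p = 0.21 and 0.25). With the trend removed they were −0.04 and −0.08.

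Snx2 and Snx5, which pair with retromer's core as membrane-bending nexins, rose on array design 2 by 0.21 ± 0.06 and 0.20 ± 0.12 (SD, n = 5, limma adjusted p = 0.0049 and 0.013). Their probes on array design 1 gave −0.03 and 0.03. With the trend removed Snx2 stood at 0.10 and Snx5 at 0.01 on array design 2 (adjusted p = 0.16 and 0.84). The retromer core gave rises of Vps26a, by 0.20 ± 0.19, and Vps29, by 0.20 ± 0.17 (SD, n = 5, limma adjusted p = 0.025 and 0.018), both divided by dye: Vps26a had 0.92 and −0.53 in the 2 orientations and Vps29 had 0.48 and −0.08. Less the trend they were 0.00 and 0.02. A second Vps26a probe gave 0.12 (limma adjusted p = 0.16). Vps35, the remaining core subunit, gave 0.02 (limma adjusted p = 0.80).

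Of the tethers, Vps16, a core subunit shared by the HOPS and CORVET complexes, rose on array design 2. Its replicates were 0.30, 0.17, 0.29, 0.24 and 0.29, a mean of 0.26 ± 0.05 (SD, n = 5, limma adjusted p = 8.0e-04), with 0.12 and 0.39 in the 2 orientations. Less the trend, Vps16 stood at 0.01 (adjusted p = 0.85). Its partners in the complexes did not pass: Vps11 had 0.04 and 0.06 on array design 1, and Vps39, Vps8 and Vps33a had −0.01, 0.03 and −0.05 on array design 2. On array design 1, Vps33a had 0.23 and Vps41, a HOPS subunit, had 0.27, each with 1 replicate far above the others. With the trend removed these were 0.16 and −0.004. The Vps41 probes of array design 2 had 0.01 and 0.13. No ESCRT probe passed among 7. Of the ESCRT probes within the rule on array design 2, Vps37c had the smallest p, at −0.10 (limma adjusted p = 0.17) and −0.01 with the trend removed.

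**Figure D3:**
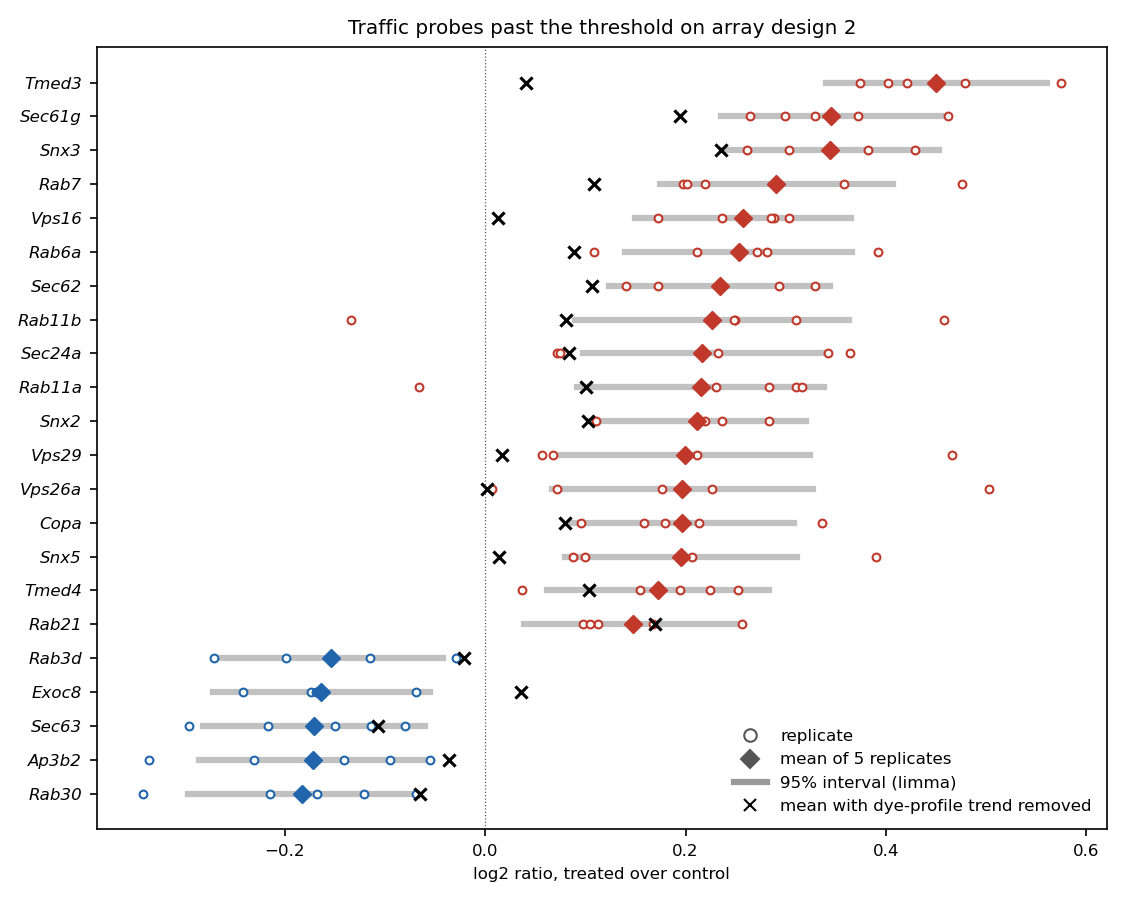
Log2 ratio of treated over control embryos (x axis) for the 22 traffic probes with an adjusted p under 0.05 on array design 2 (y axis). Open circles are the 5 replicates, diamonds their mean, grey bars 95% intervals and crosses the mean with the dye-profile trend removed. The crosses of Sec61g, Snx3 and Rab21 lie at 0.19, 0.24 and 0.17, while that of Tmed3 lies at 0.04.

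Precision was lower on array design 1, and 1 readout weighed on it. The 95% interval of a traffic probe reached a median of 0.16 to either side of its mean (0.11 to 0.39), against 0.12 on array design 2. One readout of replicate 4, marked B and with treated RNA in channel 2, lacked 786 of its 7680 values and had the widest spread of the arrays, an SD of 1.13. Without it, 10 of the 95 traffic probes were higher and 2 lower (limma), which is 10.5% and 2.11%, against 10.2% and 5.77% of all probes. Removing the trend as well left 0 and 0 (limma, 9 and 4 at an unadjusted p under 0.05), against 0.977% and 0.56% of all probes. The rises were in Vamp3, Rab1a, Snx3, Ap2m1, Rab14, Snx22, Rab10, Copz1, Vps25 and Snx6, and the falls in Vps13b and Vps13d. For 5 of these 12 the readout held no value, so their ratios were the same and only the fit across all probes differed.

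Vamp3, a SNARE of recycling endosomes, had the lowest adjusted p of that set. Its replicates were 0.34, 0.24, 0.18, 0.52 and 0.52, a mean of 0.36 ± 0.16 (SD, n = 5), with 0.36 in each orientation. The limma adjusted p was 0.052 with the readout and 0.0051 without it, and with the trend removed the value was 0.11 (adjusted p = 0.25). Rab1a, the Rab of ER-to-Golgi transport, had 0.22, 0.20, 0.17, 0.83 and 0.47, of which the value 0.83 of replicate 4 was 0.26 without the readout. Its mean was 0.38 ± 0.28 with the readout and 0.27 ± 0.12 without it (SD, n = 5, limma adjusted p = 0.052 and 0.015).

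Snx22, a little-studied nexin, gave the highest mean of the traffic probes of array design 1, 0.39 ± 0.43 (SD, n = 5, limma adjusted p = 0.099), and it too rested on replicate 4, at 1.13 with the readout and 0.44 without it. Its mean without the readout was 0.25 ± 0.16 (limma adjusted p = 0.024). Vps13b, a lipid-transfer protein of the Golgi, had −0.25, −0.24, −0.30, −0.23 and −0.17, close together and all below 0, with a mean of −0.24 ± 0.04 (SD, n = 5) and a limma adjusted p of 0.052 with the readout and 0.021 without it. Its relative Vps13d, a lipid-transfer protein linked to mitochondria, had −0.21 ± 0.08 with the readout and −0.24 ± 0.14 without it, where replicate 4 lay at −0.48 (limma adjusted p = 0.052 and 0.024). The orientations of Vps13d gave opposite signs, −0.54 and 0.12, and those of Vps13b −0.44 and −0.04. Less the trend, Vps13b stood at −0.14 (adjusted p = 0.15) and Vps13d at 0.00.

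**Figure D4:**
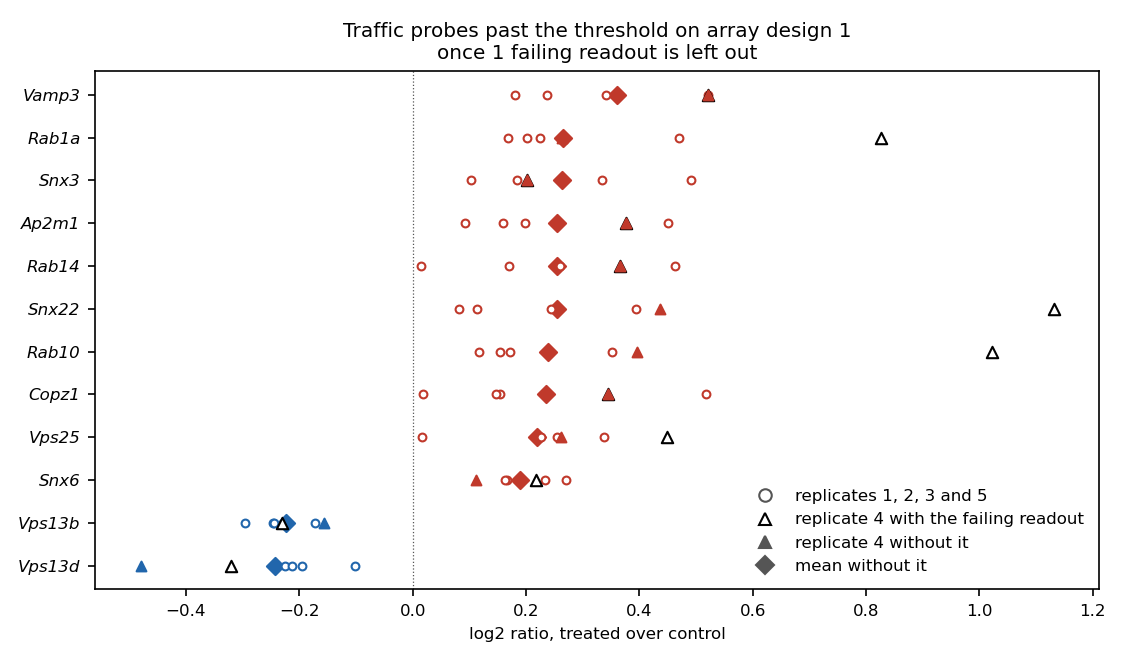
Log2 ratio of treated over control embryos (x axis) for the 12 traffic probes of array design 1 (y axis) with an adjusted p under 0.05 once the failing readout of replicate 4 was left out. Circles are replicates 1, 2, 3 and 5, triangles replicate 4 with the readout (open) and without it (filled), and diamonds the mean without it. Replicate 4 of Rab1a moved to 0.26 without the readout, against 0.83 with it.

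Of the 18 genes on both designs, 10 were above 0 on both, 3 below 0 on both and 5 differed in sign, taking the mean over a gene's probes. Snx3 had the highest mean on array design 2 and the next-highest on array design 1. Sec24a followed on array design 2, at 0.22, and had 0.17 on array design 1. Sec63, Snx2, Sec22b, Rab8a and Vps33a were the genes with opposite signs. With the trend removed 15 of the 18 had 1 sign, with Snx3 at 0.24 and 0.17 and Ap1g1 at −0.20 and −0.05 on array designs 2 and 1. Among genes with more than 1 probe on a design, the probes had opposite signs for 1 of 12 genes on array design 1 (Vps37a) and 3 of 7 on array design 2 (Cope, Rab11a and Snx8). None of these counts of signs was computed over all genes of the arrays, so none has a background.

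**Figure D5:**
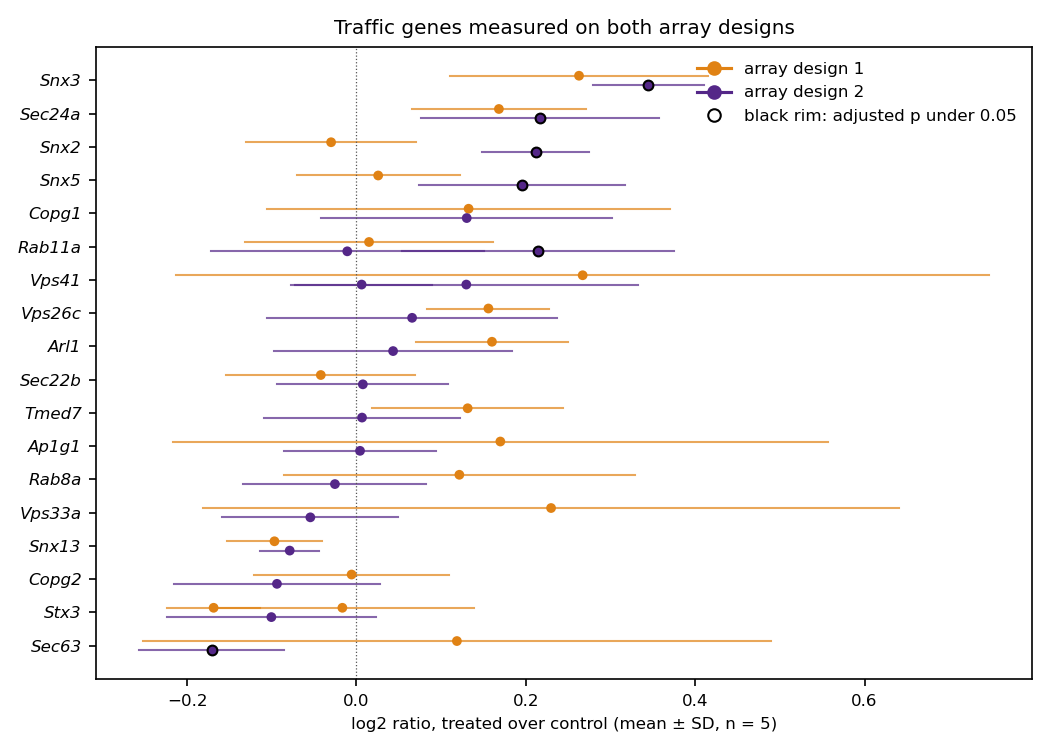
Log2 ratio of treated over control embryos (x axis, mean ± SD of 5 replicates) for the probes of the 18 traffic genes on both array designs (y axis), with array design 1 in orange and array design 2 in purple. A black rim marks an adjusted p under 0.05. Snx3 lies at 0.26 and 0.34, and Sec63 at 0.12 and −0.17.

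All 22 called probes of array design 2 had the same sign on slides of series 2000 and on slides of series 3000. These slides hold the same 5 replicates that made the calls. Since 20 of the 22 had 1 sign in every replicate, this is no separate check of them. Snx3 had 0.33 and 0.37 in the 2 series, Sec61g 0.38 and 0.30, and Rab21 0.16 and 0.14. Other genes of the pathway outside the name rule, such as TRAPP, ERGIC, signal peptide and lysosomal membrane genes, formed a list of 128 genes, of which 55 were measured by array design 1 and 57 by array design 2. The 69 probes of array design 1 gave 0 calls (limma, 24 at an unadjusted p under 0.05), or 11 higher and 1 lower without the failing readout, against 10.2% and 5.77% of all probes. Their 67 probes on array design 2 gave 16 higher and 6 lower, against 19.8% and 8.07% of all probes, or 1 and 2 with the trend removed, against 3.15% and 1.88%. The one higher in both was a probe of Lamp2, a lysosomal membrane protein, at 0.27 ± 0.13 (SD, n = 5, limma adjusted p = 0.0013) and 0.21 with the trend removed (adjusted p = 0.022). Another Lamp2 probe of that design passed neither way, at 0.11 ± 0.17 (limma adjusted p = 0.18) and 0.08 with the trend removed (adjusted p = 0.34). Tsg101, an ESCRT subunit, had 0.34 ± 0.11 (limma adjusted p = 7.3e-05) and 0.13 with the trend removed (adjusted p = 0.085). Cyth3, an exchange factor for Arf, fell by 0.28 ± 0.21 (limma adjusted p = 0.0026) and by 0.29 with the trend removed (adjusted p = 0.032).

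Among markers of blood, only globin probes were called. On array design 2, 4 of 13 listed erythroid genes were measured, on 7 probes, and 5 of the 7 were higher, against 19.8% of all probes. All 5 were probes of Hbb-y or Hba-x, and the median over the 7 was 0.58. With the trend removed 3 of the 7 were higher, all of Hbb-y, against 3.15% of all probes, and the median was 0.31. Slc4a1 and Alas2 had 0.11 and 0.00 and were not called. On array design 1 the only erythroid gene measured, Gata1, had −0.06 (limma adjusted p = 0.45). On array design 1 the 4 visceral endoderm probes lay between −0.17 and −0.06, with none called, and the placental lists had 2 probes on each design with 1 called, a Dcn probe at −0.18 on array design 2 (limma adjusted p = 0.016, and −0.07 with adjusted p = 0.30 with the trend removed). The other Dcn probe there gave 0.03 (limma adjusted p = 0.65). The placental probes of array design 1, for Prl8a2 and Hand1, had −0.26 and −0.01 (limma adjusted p = 0.052 and 0.97). With the trend removed they were −0.07 and 0.00. Without the failing readout 1 of these 2 was lower, against 5.77% of all probes. The part of these tissues in the ratios of the traffic genes was not tested.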

How the data were processed

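Per the labels, each sample is a 2-colour array of treated against control embryos, and channel, replicate, array design, slide and readout were taken from source names and titles. The values the authors deposited were taken as log2 ratios of the channels. Base 2 was inferred from the tail of low ratios in 1 failing readout, taken as exponential. Below −3, −4 and −5 the mean excess was 1.46 ± 0.08, 1.53 ± 0.12 and 1.74 ± 0.17 (SE), so it rose with the cut. The value for base 2 is 1.44, against 1.0 for the natural logarithm and 0.434 for base 10. Channel 1 was taken as the numerator. For the B mark, the scanner, the software, the background correction and the normalization, nothing is given in the sources used here. Array medians ran from −1.73 to 1.69. The number of arrays limits the precision.

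Each array was centred on its median over all 7680 spots, signs were turned to treated over control, spots of one accession were averaged, readouts and then orientations were averaged to 1 value per replicate, and probes with 3 or more replicates were tested with limma 3.58.1 in R 4.3.3, with Benjamini-Hochberg adjustment over all probes of a design. The dye-profile trend was fitted per replicate with mgcv 1.9.3 on 3 principal components of the dye part, with bases of 40 and 8, and the residuals were tested. Fits were tested on simulated data. Figures were drawn with matplotlib 3.10.9.

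Probe names came from the platform annotation, and 5 and 4 probes with a traffic gene among several symbols were not used. One gene that the name pattern fits is not reported here. Traffic steps and lists were written by hand. Named are up to 12 of the largest rises and 12 of the largest falls past the threshold with 1 sign in every replicate, the smallest p of each step on each design, genes on both designs and genes with probes of opposite sign. Other genes named here, those called without the failing readout, the trend-removed calls and the partners of named subunits were chosen after their values were seen. The members, lists and alternatives were chosen with earlier results of these data known.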

Additional observations from a re-analysis of the deposited data

Results flagged for a closer look

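In 4 of the 71 named traffic probes 1 replicate stood apart from the other 4 by Dixon's test, which chance gives in about 1 in 20 groups. Vps41, a HOPS tether subunit, had 1.10 in replicate 4 of array design 1, against −0.12 to 0.19 in the others. Its mean was 0.27 ± 0.48 (SD, n = 5) and 0.08 without the failing readout. Vps33a, another HOPS subunit, had 0.95 in replicate 3 of array design 1, against −0.03 to 0.18. Rab11a had −0.066 in replicate 2 of array design 2, against 0.23 to 0.32, and its limma adjusted p was 0.0016 without that replicate. One Vps41 probe had −0.14 in replicate 3 of array design 2, against 0.03 to 0.05 in the others.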

How the results depend on the processing

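Over the named probes, all alternatives together gave 1011 values with the same direction and side of the threshold, 97 that lost the call, 60 that gained it, 126 that changed sign with no call either way and 43 that changed sign with a call. Without centring the median of all probes moves to −0.24 and −0.41, and 43 named probes changed sign by this construction. The 29 of them with a call in either fit had log2 ratios, on array design 1, of Snx5 −0.21, Rab11a −0.22, Sec14l2 −0.21 and Tmed7 −0.18, and, on array design 2, of Arl1 −0.39, Rab11fip1 −0.31, Snx5 −0.23, Sec62 −0.20, Snx2 −0.22, Vps26c −0.36, Rab11a −0.21, Ap1g1 −0.43, Arf4 −0.29, Vps72 −0.34, Vps26a −0.23, Copg1 −0.30, Vps29 −0.23, Tmed7 −0.42, Sec61g −0.084, Stx16 −0.29, Vps41 −0.42 and −0.30, Sec22b −0.42, Snx3 −0.085, Rab6a −0.18, Copa −0.23, Rab7 −0.14, Sec24a −0.21 and Vps16 −0.17. With treated embryos in channel 2 only, signs turned with a call in either fit for Rab8a −0.65, Vps33a −0.46, Sec14l2 −0.75, Ap3b2 0.12, Snx5 −0.040, Rab30 0.089, Rab3d 0.29, Exoc8 0.035, Vps26a −0.53 and Vps29 −0.078, and with no such call for 23 more named probes. With them in channel 1 only they turned with a call for Stx3 0.48 and Tmed3 −0.36, and with none for 8 more. With the dye-profile trend removed they turned with a call for Ap1g1 −0.20 and Exoc8 0.036, and with none for 16 more. For these single orientations the dye effect no longer cancels. For the trend the cause was not tested.

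On array design 1 the counts of 0 higher and 0 lower traffic probes (limma, 22 and 12 at an unadjusted p under 0.05) became 3 higher with arrays scaled to one spread, 1 and 2 with plain readouts only, 17 and 11 with treated embryos in channel 1 only, 3 and 10 with them in channel 2 only, 10 and 2 without the failing readout, 5 and 2 with probes of a gene averaged and 40 lower without centring. Leaving out a replicate gave 0 to 0 both ways. On array design 2 the 17 higher became 0 without centring (0 at an unadjusted p under 0.05), 11 with plain readouts, 1 in the channel 2 orientation, 7 within slide series 3000 and 3 with the trend removed, and 8 to 23 without a replicate. The 5 lower became 85 without centring, 0 with scaled arrays (limma, 5 at an unadjusted p under 0.05), 1 with plain and 3 with B readouts, 0 in the channel 2 orientation (4 unadjusted), 0 within series 3000 (2 unadjusted), 2 with the trend removed, and 0 to 5 without a replicate. Some of these settings use fewer arrays or replicates, and the cause of the differences was not tested. With a robust variance prior no call of a named probe changed, and the higher traffic probes of array design 2 numbered 18. With values in every array no call changed among the 64 named probes so measured. The shares of all probes called in these settings were as follows. On array design 1, channel 1 only gave 15.9% higher and 14.4% lower of all probes, channel 2 only 4.14% and 10.3%, scaled arrays 4.47% higher, plain readouts 5.73% and 0.794%, averaged probes 5.51% and 6.66%, the fit without the failing readout 10.2% and 5.77%, and no centring 59.8% lower. On array design 2 no centring gave 0.276% higher and 87.3% lower of all probes, plain readouts 12.8% and 1.37%, channel 2 only 1.39% and 0.145%, series 3000 9.99% and 0.684%, the trend removed 3.15% and 1.88%, scaled arrays 2.37% lower and B readouts 6.76% lower.

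Background signals are not given, so dim probes could not be set apart. Folds assume base 2, and the sign assumes channel 1 on top.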
